A study of Homo sapiens with 4 samples.

Results

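Aminoacyl-tRNA synthetases are the enzymes that load each transfer RNA with its amino acid. Their genes were taken from the count table by symbol, as every feature that matched a single letter followed by ARS with or without a closing 2, or EPRS, FARSA or FARSB. This gave 37 of 37450 features, of which 20 encode cytosolic enzymes and 17, with symbols ending in 2, mitochondrial enzymes. All 37 passed the filter on low counts, which kept 20999 genes. RNA was profiled in 143B cells, a human osteosarcoma line, on day 2 after lipid-based transfection of siRNA. The groups were siCBX3, with an siRNA against CBX3 (genotype label CBX3 knockdown, 2 libraries), and siNC, with a non-targeting siRNA (genotype label WT, 2 libraries). The labels name no other allele or agent, do not give the number or sequence of the siRNAs, and do not say that replicates were separate cultures. The p-values therefore measure only the spread between these libraries, which may be technical. In the edgeR quasi-likelihood test, used for the main comparison, the spread of each gene was drawn towards a trend over all genes tested. The p-value of a gene in that test therefore rests mostly on spread pooled over genes, and less on that between its own libraries.

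A synthetase recognises its transfer RNA, activates the amino acid with ATP and joins the pair, so that the ribosome receives the right building block for each codon. Cytosol and mitochondria translate separately, and most amino acids have a nuclear gene for each compartment. GARS and KARS are exceptions, each known to supply both compartments, and EPRS encodes a fused enzyme for glutamate and proline. FARSA and FARSB encode the subunits of the cytosolic phenylalanine enzyme. A group of cytosolic enzymes (EPRS, IARS, LARS, MARS, QARS, RARS, KARS and DARS) assembles in the multi-synthetase complex on the scaffold proteins AIMP1, AIMP2 and EEF1E1. Many cytosolic synthetase genes are known targets of ATF4, the transcription factor that responds to amino acid shortage. The silenced gene, CBX3, encodes the heterochromatin protein HP1γ.

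Total counts per library ranged from 36509298 to 40336907. Log2 CPM across genes had a Pearson correlation of 0.991 within siCBX3 and 0.991 within siNC, and of 0.957 to 0.961 between groups. CBX3 itself had 57.3 and 57.1 CPM in siCBX3 and 539 and 508 CPM in siNC (log2 fold change -3.19, SE 0.08, edgeR quasi-likelihood adjusted p = 2.73e-20). Among the 8 mesenchymal and osteoblast-lineage markers, VIM had 650.7 CPM or more and SPARC 284 CPM or more in every library, whereas ALPL had 4 counts at most. Their summed level was 3567 to 3642 CPM in siCBX3 and 1474 to 1482 CPM in siNC, most of it from VIM, SPARC and CD44. CD44 did not separate the groups, with 403 and 415 CPM in siCBX3 and 438 and 396 CPM in siNC. COL1A1, COL1A2 and TWIST1 had 18.3 CPM or less and RUNX2 6.01 CPM or less in every library. The 4 leukocyte markers summed to 0.264 to 0.981 CPM and the 4 endothelial markers to 1.82 to 2.89 CPM. EPCAM, an epithelial marker, had 9.69 and 10.2 CPM in siCBX3 and 14.1 and 14.2 CPM in siNC, and the other 3 epithelial markers were at 0.212 CPM or less.

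Promoter sequence was examined because many cytosolic members are described as ATF4 targets. RefSeq windows (GRCh38.p14) of 250 bases before to 50 after a gene's start were matched by symbol or synonym and gave 39 windows for 30 members, 16 cytosolic and 14 mitochondrial. The core of the C/EBP-ATF response element, to which ATF4 binds, was searched as TGATGNAA on both strands (N stands for any base). It lay in a window of 7 of the 16 cytosolic genes (43.8%) and 1 of the 14 mitochondrial genes (7.14%), against 4.46% of all 27305 genes with windows. These 7 and YARS2 are shown 5′ to 3′ on the strand of each gene, with the match in capitals, because the levels of several of them differed between the siNC libraries, as described further on.
AARS, chr16:70289661-70289718, minus strand: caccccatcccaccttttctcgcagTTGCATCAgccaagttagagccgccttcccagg
CARS, chr11:3057393-3057450, minus strand: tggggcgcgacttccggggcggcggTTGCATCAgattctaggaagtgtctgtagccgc
GARS, chr7:30594820-30594877, plus strand: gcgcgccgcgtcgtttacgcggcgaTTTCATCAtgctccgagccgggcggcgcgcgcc
IARS, chr9:92293678-92293735, minus strand: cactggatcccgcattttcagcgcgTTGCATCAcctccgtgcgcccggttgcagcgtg
MARS, chr12:57488039-57488096, plus strand: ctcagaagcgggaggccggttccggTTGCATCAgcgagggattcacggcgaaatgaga
NARS, chr18:57621790-57621847, minus strand: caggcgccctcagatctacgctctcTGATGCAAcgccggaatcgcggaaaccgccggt
TARS, chr5:33440942-33440999, plus strand: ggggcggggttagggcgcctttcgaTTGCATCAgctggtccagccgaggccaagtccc
YARS2, chr12:32756062-32756119, minus strand: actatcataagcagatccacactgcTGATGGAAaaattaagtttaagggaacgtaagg
In 6 of the 7 cytosolic genes the match read TTGCATCA or its reverse complement TGATGCAA. A match describes these letters and is not a bound site.

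Other motifs were rarer among the cytosolic windows. The E-box CACGTG, bound by MYC with MAX, was in 1 of 16 cytosolic (IARS) and 3 of 14 mitochondrial genes (CARS2, EARS2 and MARS2), against 8.77% of all genes with windows. The core GCGCATGC of the site of NRF1, an activator of nuclear genes for mitochondrial proteins, was in 0 of 16 cytosolic and 2 of 14 mitochondrial genes (MARS2 and YARS2), against 3.68%. The window of MARS2 is shown because it held both, 6 bases apart, and because MARS2 was the mitochondrial gene that fell; the capitals mark the NRF1 core on each strand, which overlap, and then the E-box.
MARS2, chr2:197705317-197705388, plus strand: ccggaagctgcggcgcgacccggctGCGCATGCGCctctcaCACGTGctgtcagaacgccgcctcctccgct
HARS and HARS2, which load histidine in cytosol and mitochondria, stand head to head on chromosome 5, and their RefSeq starts lie 85 bases apart. Their windows have 184 bases in common, shown on the strand of HARS2, with the stretch from the start of HARS to the start of HARS2 in capitals.
HARS and HARS2, chr5:140691321-140691504, plus strand: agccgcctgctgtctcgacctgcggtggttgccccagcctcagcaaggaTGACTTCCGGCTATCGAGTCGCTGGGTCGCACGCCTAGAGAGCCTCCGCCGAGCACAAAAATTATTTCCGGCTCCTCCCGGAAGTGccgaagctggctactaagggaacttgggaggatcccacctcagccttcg

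Cytosolic synthetase genes were expressed at higher levels than mitochondrial ones. Per length, as the RPKM that the authors deposited, the median over libraries and genes was 29.7 for the 20 cytosolic genes, 6.56 for the 17 mitochondrial genes and 2.48 for all genes tested. NARS, the asparagine enzyme, was the most abundant cytosolic member, with 77.5 and 81.2 RPKM in siCBX3 and 99.8 and 116 RPKM in siNC. YARS, the tyrosine enzyme, was the least abundant, with 7.36 and 7.79 RPKM in siCBX3 and 8.77 and 11.9 RPKM in siNC. IARS2, the mitochondrial isoleucine enzyme, led its group with 30.9 and 32.8 RPKM in siCBX3 and 30.5 and 31.3 RPKM in siNC. PARS2, the mitochondrial proline enzyme, was lowest, with 1.35 and 1.18 RPKM in siCBX3 and 0.970 and 1.12 RPKM in siNC. Among 16 pairs of a cytosolic and a mitochondrial gene for the same amino acid, the cytosolic gene had the higher RPKM in every library in 14. The exceptions were isoleucine and tryptophan, where IARS2 and WARS2 stood above IARS and WARS in every library. For tryptophan the order depended on the annotated exon length, 6358 bases for WARS and 3847 for WARS2. By CPM, WARS stood above WARS2 in siNC (84.6 and 101 against 74.9 and 83.1) and below it in siCBX3 (86.1 and 87.1 against 106 and 119).

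**Figure D1:**
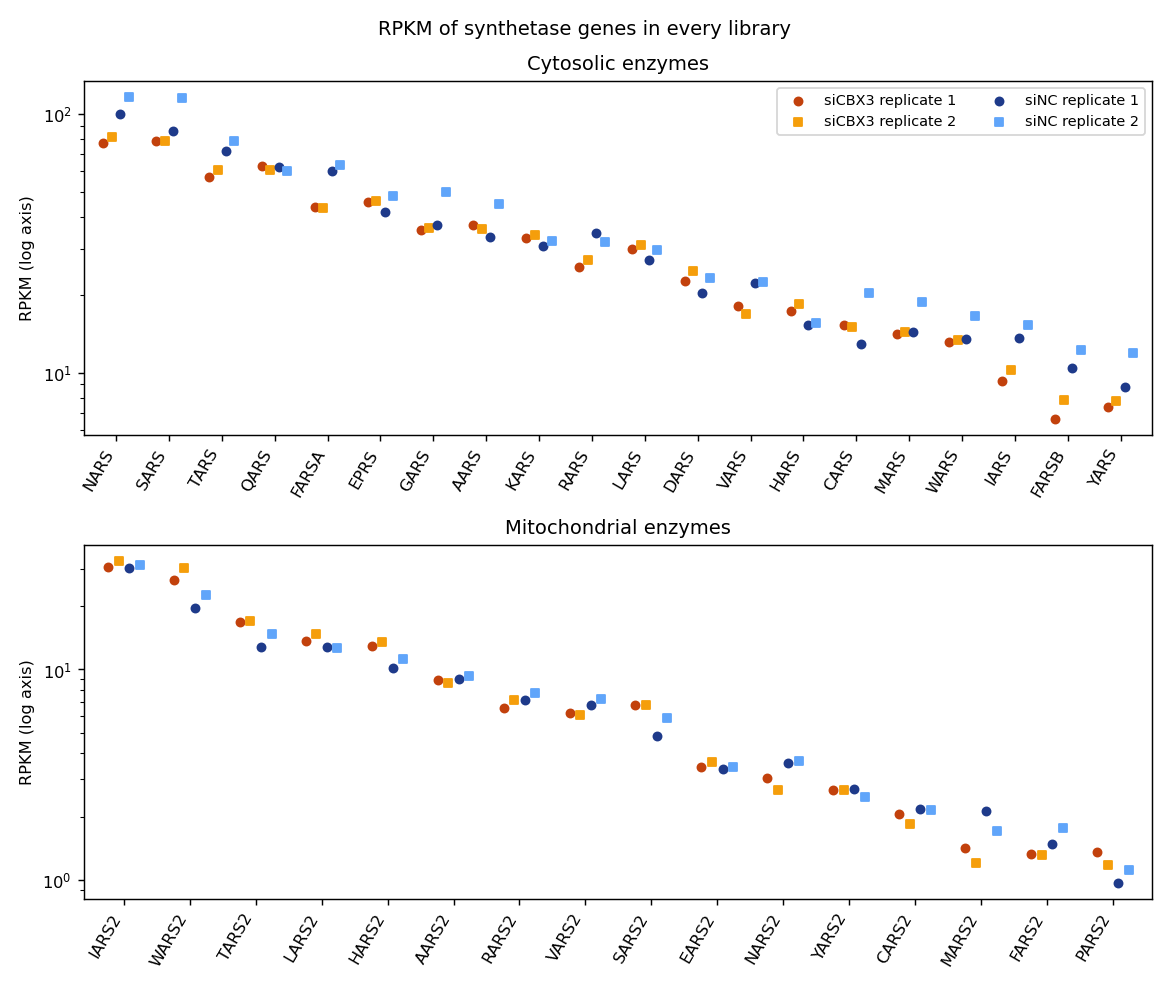
RPKM (log axis) of synthetase genes in every library, with 20 cytosolic genes above and 16 mitochondrial genes below, each ordered by mean RPKM; points are single libraries, siCBX3 in orange shades and siNC in blue. Cytosolic genes run from NARS down to YARS and mitochondrial genes from IARS2 down to PARS2.

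With CBX3 depleted, more cytosolic synthetase genes fell than rose, and more mitochondrial ones rose than fell, by modest amounts. Of the 20 cytosolic genes 9 fell, 3 rose and 8 were not called (edgeR quasi-likelihood test, Benjamini-Hochberg adjusted p under 0.05 over all genes). Of the 17 mitochondrial genes 1 fell, 6 rose and 10 were not called; 5 of the 6 are described by name. Over all genes tested 48.4% were called, 24.4% higher and 24% lower in siCBX3, so the total of 19 called members of 37 lies close to the background. The median log2 fold change, siCBX3 over siNC, was -0.17 for cytosolic and 0.12 for mitochondrial genes, against -0.0058 for all genes tested. No member reached a change of 1.5-fold: the fold changes ran from FARSB, 1.47-fold lower, to WARS2, 1.42-fold higher. In bulk RNA, fewer cells that express a gene and less RNA per cell cannot be told apart.

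**Figure D2:**
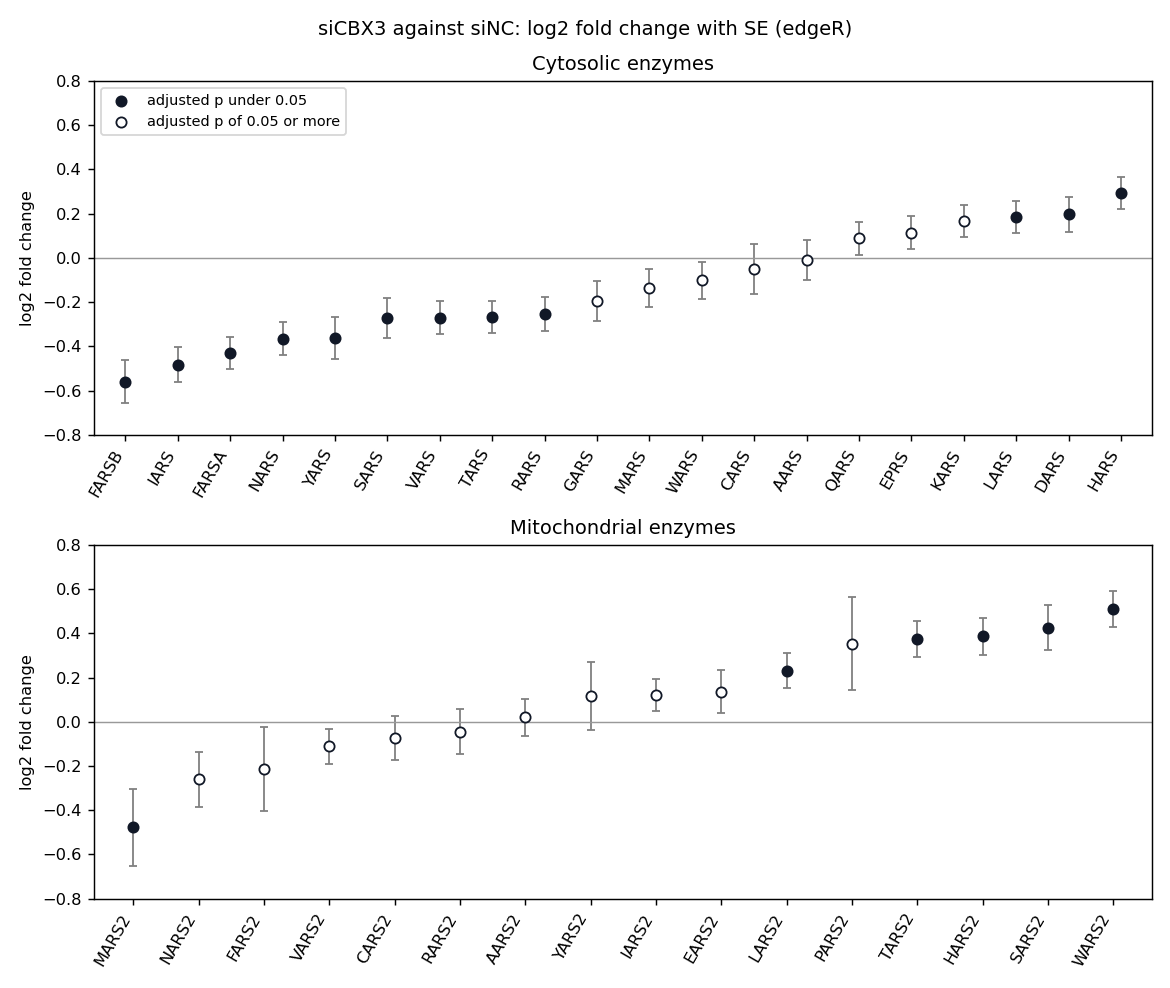
Log2 fold change of synthetase genes, siCBX3 over siNC, from edgeR, with bars of 1 SE; filled points had an adjusted p under 0.05. Filled points are mostly below 0 among cytosolic genes (9 below, 3 above) and mostly above 0 among the 16 mitochondrial genes plotted (5 above, 1 below).

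How many cytosolic genes fell and how many rose depended on which siNC library was used. Without siNC replicate 2, 7 cytosolic genes fell and 6 rose, with a median of 0.021, and without siNC replicate 1, 13 fell and 1 rose, with a median of -0.27. The mitochondrial counts moved less, with 1 lower and 6 higher without siNC replicate 2 and 0 lower and 6 higher without siNC replicate 1. The cytosolic median stood below the mitochondrial median in both cases, by 0.097 without siNC replicate 2 and by 0.41 without siNC replicate 1. Leaving out siCBX3 libraries left 7 cytosolic genes lower each time, with 1 higher without replicate 1 and 0 without replicate 2.

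The cytosolic genes that fell were led by the phenylalanine and isoleucine enzymes. FARSB (chromosome 2, 222570536 to 222656337, minus strand, GRCh38), the β subunit of the phenylalanine enzyme, had 23.1 and 27.0 CPM in siCBX3 and 34.6 and 39.4 CPM in siNC. It fell by 0.56 on the log2 scale, with an SE of 0.10 and an edgeR adjusted p = 3.64e-05. FARSA (chromosome 19, 12922479 to 12934037, minus strand), the α subunit, had 109.9 and 108 CPM in siCBX3 and 145 and 148 CPM in siNC, a log2 fold change of -0.43 (SE 0.07, adjusted p = 2.95e-05, edgeR). In both genes the siCBX3 libraries lay below the siNC libraries, so the subunits of 1 enzyme fell together. IARS (chromosome 9, 92210207 to 92293756, minus strand), the isoleucine enzyme of the multi-synthetase complex, had 71.1 and 77.4 CPM in siCBX3 and 99.5 and 108 CPM in siNC, a log2 fold change of -0.48 (SE 0.08, adjusted p = 1.75e-05, edgeR). NARS (chromosome 18, 57600656 to 57622213, minus strand) had 328 and 339 CPM in siCBX3 and 404 and 455 CPM in siNC, a log2 fold change of -0.37 (SE 0.08, edgeR adjusted p = 0.000299). These 4 genes fell in the main comparison and under all 13 alternatives of processing, replicate or test that were run.

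The other 5 cytosolic genes that fell had smaller changes or rested more on single libraries. TARS, the threonine enzyme (chromosome 5, 33440696 to 33469539, plus strand), had 339 and 356 CPM in siCBX3 and 406 and 429.7 CPM in siNC, a log2 fold change of -0.27 (SE 0.07, edgeR adjusted p = 0.0039). The valine enzyme VARS (-0.27) and the arginine enzyme RARS (-0.25) also had siCBX3 libraries below both siNC libraries. YARS (chromosome 1, 32775237 to 32818153, minus strand) had 62.6 and 65.4 CPM in siCBX3 and 71.3 and 93.2 CPM in siNC, a log2 fold change of -0.36 (SE 0.10, adjusted p = 0.00279, edgeR). SARS, the serine enzyme (chromosome 1, 109213918 to 109238169, plus strand), had 312 and 309 CPM in siCBX3 and 327 and 423 CPM in siNC, a log2 fold change of -0.27 (SE 0.09, adjusted p = 0.0145, edgeR). In YARS and SARS siNC replicate 2 was far above the other 3 libraries, and without it their log2 fold changes were -0.15 (adjusted p = 0.153) and -0.070 (adjusted p = 0.451). Without siNC replicate 1, RARS was not called (log2 fold change -0.17, adjusted p = 0.076). Without siCBX3 replicate 1, RARS (adjusted p = 0.117) and TARS (adjusted p = 0.0939) were not called, and without siCBX3 replicate 2, VARS (adjusted p = 0.143) and SARS (adjusted p = 0.0568) were not. SARS was not called in DESeq2 (adjusted p = 0.266), and neither SARS (adjusted p = 0.11) nor YARS (adjusted p = 0.0749) in limma on log2(RPKM + 1).

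The 3 cytosolic genes that rose were HARS, DARS and LARS. HARS, the histidine enzyme, had 151 and 159 CPM in siCBX3 and 128 and 125 CPM in siNC (log2 fold change 0.29, SE 0.07, adjusted p = 0.0019, edgeR), and its adjusted p was 0.0526 without siCBX3 replicate 2. DARS, the aspartate enzyme, had 94.1 and 101 CPM in siCBX3 and 81.1 and 89.4 CPM in siNC (log2 fold change 0.20, adjusted p = 0.0422). LARS, the leucine enzyme, had 253 and 258 CPM in siCBX3 and 219 and 231 CPM in siNC (log2 fold change 0.18, adjusted p = 0.0381). The calls of DARS and LARS ended under 7 and 6 of the 13 alternatives, among them library totals in place of TMM scaling (adjusted p = 0.264 and 0.266) and the fits without siNC replicate 1, siCBX3 replicate 1 or siCBX3 replicate 2 (adjusted p 0.0678 to 0.33 for DARS and 0.105 to 0.22 for LARS).

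Of the 8 enzyme genes of the multi-synthetase complex 2 fell (IARS and RARS) and 2 rose (LARS and DARS), with a median log2 fold change of 0.10. Both counts are near the share of all genes tested, 24% lower and 24.4% higher. KARS (0.17, adjusted p = 0.0612), EPRS (0.11), QARS (0.088) and MARS (-0.14) were not called. With library totals, and without siCBX3 replicate 1, siCBX3 replicate 2 or siNC replicate 1, 0 rose. Of the 12 cytosolic enzyme genes outside the multi-synthetase complex 7 fell and 1, HARS, rose, with a median of -0.27. These counts changed when either siNC library was left out. The difference between these subsets was not tested. Among the scaffold genes EEF1E1, the gene of AIMP3, had 14.3 and 12.7 CPM in siCBX3 and 16.5 and 18.7 CPM in siNC (log2 fold change -0.38, SE 0.11, adjusted p = 0.00597, edgeR). EEF1E1 was not called without siCBX3 replicate 2 (adjusted p = 0.091) or without siNC replicate 2 (adjusted p = 0.0649). AIMP1 (0.16) and AIMP2 (0.081) were not called, but AIMP1 was called higher without siNC replicate 2 (log2 fold change 0.24, adjusted p = 0.0243).

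Mitochondrial synthetase genes that rose were led by the tryptophan and serine enzymes among those described here. WARS2, the tryptophan enzyme (chromosome 1, 119031216 to 119140671, minus strand), had 106 and 119 CPM in siCBX3 and 74.9 and 83.1 CPM in siNC, a log2 fold change of 0.51 (SE 0.08, adjusted p = 1.32e-05, edgeR). SARS2, the serine enzyme (chromosome 19, 38915266 to 38930896, minus strand), had 22.8 and 22.5 CPM in siCBX3 and 15.4 and 18.2 CPM in siNC, a log2 fold change of 0.43 (SE 0.10, adjusted p = 0.00138, edgeR). In both of these genes both siCBX3 libraries were above both siNC libraries, and siNC replicate 1 was the lowest library. HARS2, whose promoter window overlaps that of HARS (chromosome 5, 140691426 to 140699291, plus strand), had 45.8 and 47.0 CPM in siCBX3 and 34.2 and 36.7 CPM in siNC, a log2 fold change of 0.39 (SE 0.08, adjusted p = 0.000487, edgeR). TARS2, the threonine enzyme (chromosome 1, 150487364 to 150507609, plus strand), had 71.3 and 70.6 CPM in siCBX3 and 51.7 and 57.7 CPM in siNC, a log2 fold change of 0.38 (SE 0.08, adjusted p = 0.000453, edgeR). LARS2, the leucine enzyme, had 76.3 and 81.1 CPM in siCBX3 and 68.5 and 65.6 CPM in siNC (log2 fold change 0.23, adjusted p = 0.0163). WARS2, HARS2 and TARS2 rose under all 13 alternatives. The call of LARS2 ended with library totals (adjusted p = 0.117), upper-quartile scaling (adjusted p = 0.0534) and without siCBX3 replicate 2 (adjusted p = 0.188). In limma on log2(RPKM + 1) SARS2 (adjusted p = 0.0608) and LARS2 (adjusted p = 0.135) were not called.

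MARS2, the methionine enzyme and the gene whose promoter stretch is shown above, was the mitochondrial member that fell. It had 156 and 140 counts in siCBX3 and 240 and 208 in siNC, so it was among the genes with few reads (log2 fold change -0.48, SE 0.17, adjusted p = 0.0264, edgeR). Its call ended without siCBX3 replicate 2 (adjusted p = 0.183), without siNC replicate 1 (adjusted p = 0.272), in the DESeq2 test (adjusted p = 0.141) and in limma on log2(RPKM + 1) (adjusted p = 0.0592). PARS2 had 116 and 107 counts in siCBX3 and 85 and 106 in siNC, and its difference was not detectable at this depth (log2 fold change 0.35, SE 0.21, adjusted p = 0.172, edgeR). IARS2, the most abundant mitochondrial member, had 133 and 139 CPM in siCBX3 and 126 and 125 CPM in siNC and was not called (log2 fold change 0.12, SE 0.07, edgeR adjusted p = 0.178). The remaining 8 genes that were not called had log2 fold changes from -0.26 (NARS2) to 0.13 (EARS2), with FARS2 at -0.21, VARS2 at -0.11, CARS2 at -0.073, RARS2 at -0.045, AARS2 at 0.021 and YARS2 at 0.12. Counting overlap alone, 10 of the 17 mitochondrial genes had both siCBX3 libraries above both siNC libraries (36.4% of all genes tested) and 4 had both below (37.4%). Among cytosolic genes 5 lay above and 9 below.

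**Figure D3:**
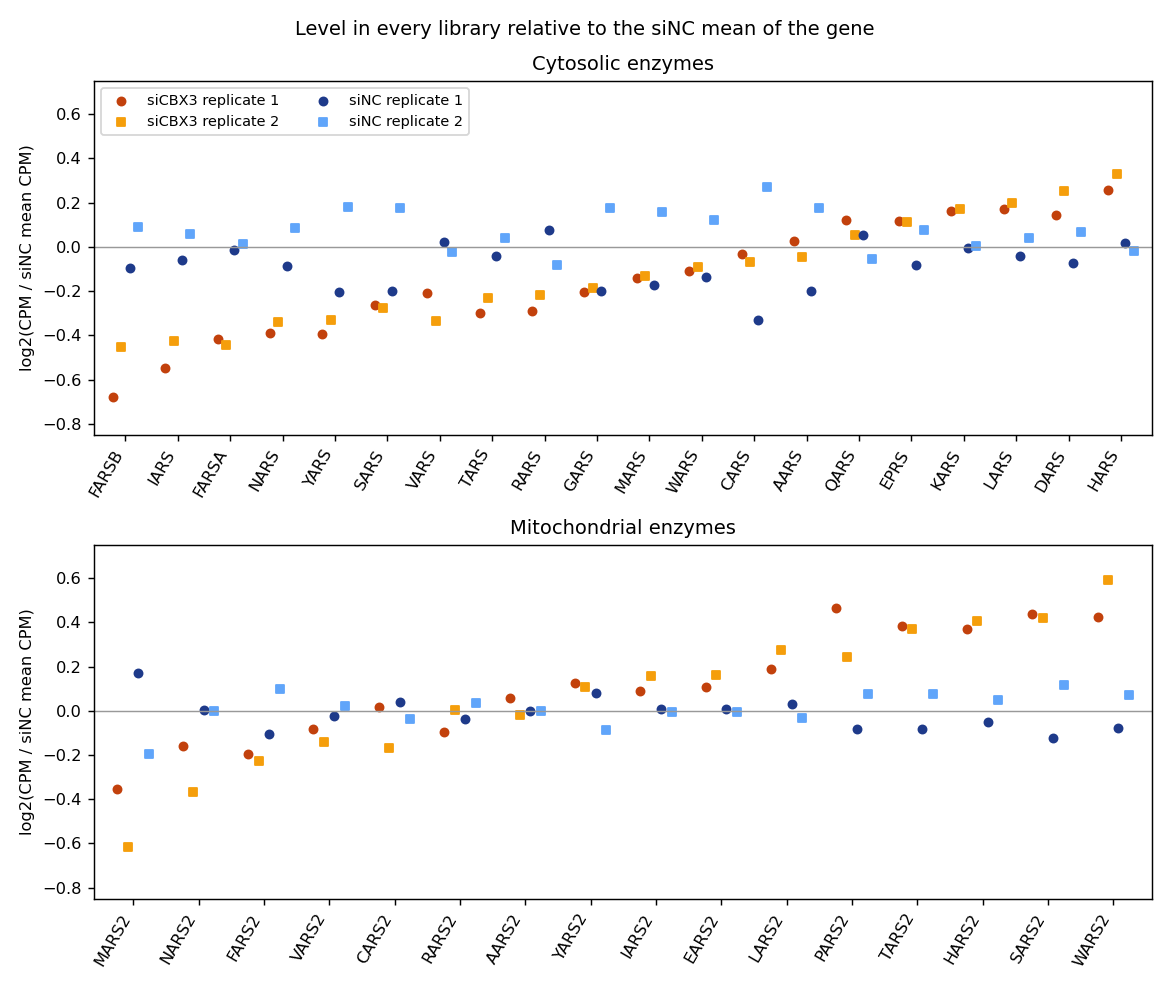
Log2 of the TMM-scaled CPM of each library over the mean siNC CPM of the same gene, 20 cytosolic genes above and 16 mitochondrial genes below, ordered by log2 fold change. In FARSB, IARS, FARSA and NARS the siCBX3 points sit below both siNC points and in TARS2, HARS2, SARS2 and WARS2 above them, while in CARS and AARS the siNC points sit on either side of the siCBX3 points.

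Cytosolic and mitochondrial enzymes for the same amino acid were then set side by side. In 14 of 16 pairs the log2 fold change of the cytosolic gene was below that of its mitochondrial partner, with a median difference of -0.21. FARS2 is the partner of both FARSA and FARSB, so the pairs are not all separate. Some differences were small, such as -0.031 for AARS and -0.048 for LARS. Without siNC replicate 2, AARS (0.19 against 0.024) and LARS (0.23 against 0.20) stood above their partners. Without siNC replicate 1, CARS (-0.32 against -0.035) and MARS (-0.291 against -0.285) stood below theirs. For serine and threonine the partners were called in opposite directions, SARS and TARS lower and SARS2 and TARS2 higher. The call of SARS did not hold in every setting. Its log2 fold change was -0.070 without siNC replicate 2, and the DESeq2 test did not call it (adjusted p = 0.266). SARS2 shares 46.2% of its exon bases with another feature on the same strand, so the ratio of SARS to SARS2 may be affected by shared reads. The RPKM ratio of TARS to TARS2, which does not depend on scaling between libraries, was 3.39 and 3.59 in siCBX3 and 5.61 and 5.31 in siNC. The ratio of SARS to SARS2 was 11.5 and 11.6 in siCBX3 and 17.8 and 19.6 in siNC. In both pairs the groups were well apart, although 2 libraries against 2 allow no two-sided exact permutation p under 0.333. The ratio of WARS to WARS2 was 0.492 and 0.443 in siCBX3 and 0.684 and 0.737 in siNC, and that of IARS to IARS2 0.301 and 0.312 in siCBX3 and 0.445 and 0.488 in siNC. In 11 of the 16 pairs both siCBX3 ratios lay below both siNC ratios, in 0 they lay above, and in 5 (AARS, CARS, LARS, MARS and NARS with their partners) the groups overlapped. For levels of single genes, 37.4% of all genes tested had both siCBX3 libraries below both siNC libraries and 36.4% had both above. The share for ratios of gene pairs in general was not computed. EPRS, the fused enzyme, was left out of the pairs.

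For histidine and leucine, unlike serine and threonine, the genes of both compartments rose. The log2 fold changes were 0.29 and 0.39 for HARS and HARS2 and 0.18 and 0.23 for LARS and LARS2. With library totals in place of TMM scaling, neither LARS nor LARS2 was called (edgeR adjusted p = 0.266 and 0.117). HARS and HARS2 share 592 exon bases on opposite strands, and the part of shared reads in their changes was not tested. The pairs whose cytosolic gene did not stand below its partner were MARS with MARS2 (difference of the log2 fold changes 0.34) and CARS with CARS2 (0.022). Summed over genes, the cytosolic members held 0.321% and 0.328% of reads in siCBX3 and 0.346% and 0.401% in siNC. The mitochondrial members held 0.065% and 0.068% of reads in siCBX3 and 0.0583% and 0.0628% in siNC. The ratio of their summed RPKM was 4.21 and 4.10 in siCBX3 and 5.25 and 5.58 in siNC.

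**Figure D4:**
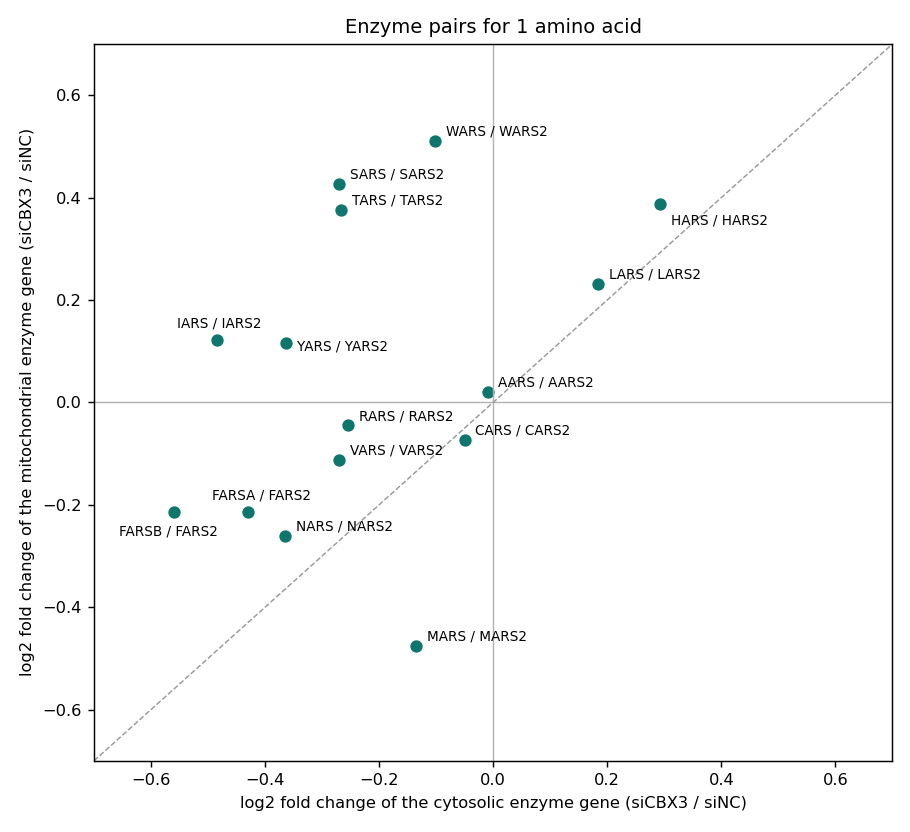
Log2 fold change (siCBX3 over siNC) of the mitochondrial gene (vertical) against that of the cytosolic gene (horizontal) for each of 15 pairs that load the same amino acid; the dashed line marks equal change. Points lie above the line in 13 pairs, SARS with SARS2 and TARS with TARS2 fall in the upper left quadrant, and MARS with MARS2 lies farthest below the line.

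A set of cytosolic genes differed between the siNC libraries by as much as, or more than, between the groups. CARS, the cysteine enzyme, had 158 and 154 CPM in siCBX3 and 128 and 195 CPM in siNC, and AARS, the alanine enzyme, 174 and 165 CPM in siCBX3 and 149 and 193 CPM in siNC. The siCBX3 libraries lay between the siNC libraries in both genes, and neither was called (adjusted p = 0.744 and 0.941, edgeR). Without siNC replicate 1 both were lower in siCBX3 (CARS log2 fold change -0.32, adjusted p = 9.89e-05; AARS -0.19, adjusted p = 0.034), and without siNC replicate 2 both were higher (CARS 0.29, adjusted p = 0.00103; AARS 0.19, adjusted p = 0.0312). GARS (-0.20, adjusted p = 0.076), MARS and WARS (-0.10) had overlapping groups too, and all 3 were called lower without siNC replicate 1.

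The level in siNC replicate 2 over that in siNC replicate 1 had a median of 1.11 over the 20 cytosolic genes, 1.03 over the 17 mitochondrial genes and 0.998 over all genes tested. Over the 7 cytosolic genes with the motif TGATGNAA in a window, shown above, the median ratio was 1.26, from 1.06 (TARS) to 1.52 (CARS). Of these 7, CARS, GARS and MARS share exon bases with other features. AARS (1.30), NARS (1.13), IARS (1.09) and TARS share none. The part of shared reads in these ratios was not tested. Over the 9 cytosolic genes with a window but no match it was 1.02, from 0.896 (RARS) to 1.29 (SARS). YARS2, the mitochondrial gene with a match, had a ratio of 0.890. The cytosolic genes without a window had ratios of 0.967 (VARS), 1.06 (LARS), 1.10 (DARS) and 1.31 (YARS). In a list of 32 ATF4 pathway genes without synthetases the median ratio was 1.25, and 26 of them were higher in siNC replicate 2, among them ATF4 itself (1.56) and PCK2 (1.68). Between the siCBX3 libraries the median ratio of replicate 2 to replicate 1 was 1.01 for cytosolic genes and 1.01 for the ATF4 list. The part of these genes' state in the siNC libraries in the group differences was not tested.

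**Figure D5:**
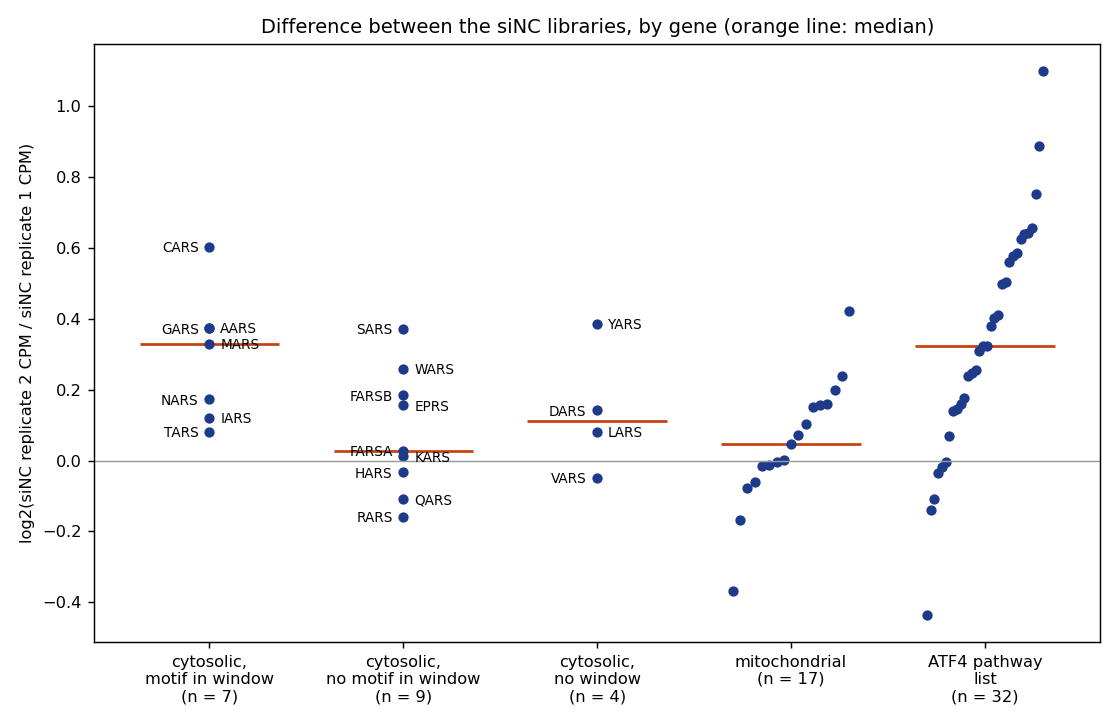
Log2 ratio of CPM in siNC replicate 2 to siNC replicate 1 for single genes, by whether a promoter window of a cytosolic synthetase gene held the motif, for mitochondrial synthetase genes and for the ATF4 pathway list; orange lines are medians. The cytosolic genes with the motif and the ATF4 list have median ratios of 1.26 and 1.25, against 1.02 for cytosolic genes with a window but no motif and 1.03 for mitochondrial genes.

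Of the 32 genes of the ATF4 pathway list 14 fell and 7 rose, against 24% lower and 24.4% higher over all genes tested, and without siNC replicate 2, 13 fell and 11 rose. ATF4 itself had 247 and 244 CPM in siCBX3 and 143 and 223 CPM in siNC (log2 fold change 0.42, SE 0.12, edgeR adjusted p = 0.00442). The size of this difference rested on siNC replicate 1: without it ATF4 was not called (log2 fold change 0.13, adjusted p = 0.136), and without siNC replicate 2 the log2 fold change was 0.78. ATF4 was also not called in DESeq2 (adjusted p = 0.313) or in limma on log2(RPKM + 1) (adjusted p = 0.223). SLC7A5, an importer of large neutral amino acids, had 21.8 and 20.8 CPM in siCBX3 and 138 and 164 CPM in siNC (log2 fold change -2.82, SE 0.09, edgeR adjusted p = 7.29e-18). The hormone gene STC2 (-1.09) fell as well, whereas DDIT4 (2.18) and CEBPB (1.57) rose. In the amino acid sensing list of 15 genes, 6 rose and 4 fell, and the number lower was 1 when siCBX3 replicate 2 was left out and 2 when siCBX3 replicate 1 or siNC replicate 1 was. PPP1R15A, which helps to reverse eIF2α phosphorylation, rose by 0.76 on the log2 scale and GCN1, a partner of the kinase GCN2, fell by 0.60.

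Lists of other genes that act on transfer RNA differed in their counts, which are to be read against 24% lower and 24.4% higher over all genes tested. Of 43 genes for end processing and modification 23 fell and 2 rose, with a median of -0.30, among them TRMT112 (-0.71), PUS7 (-0.69) and TRMT6 (-0.67), while ALKBH8 rose by 0.84. Of 8 synthetase-like and editing genes 6 fell and 1 rose, led by the deacylases DTD1 (-0.46) and DTD2 (-0.72), with SEPSECS (-0.57), the last enzyme of selenocysteine synthesis, and the hydrolase PTRH2 (-0.31); without siCBX3 replicate 2, 3 fell and 0 rose, and PTRH2 was not called (adjusted p = 0.0747). XPOT, which exports transfer RNA from the nucleus, had 64.6 and 69.5 CPM in siCBX3 and 112 and 111 CPM in siNC (log2 fold change -0.74, SE 0.08, edgeR adjusted p = 2.16e-08). In its list of 8 elongation and export genes, 5 rose and 2 fell, with a median of 0.28. EEF1A1, which brings the loaded transfer RNA to the ribosome, rose by 0.64 and EEF2 by 0.99, whereas EEF1A2, a paralogue of EEF1A1 whose reads may be shared with it, fell by 0.67. Of 46 initiation factor genes 13 rose and 15 fell, both near the share over all genes, with EIF4G3 at 1.02, EIF4B at 0.71, EIF4E3 at -1.41 and EIF4A3 at -0.63.

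Other genes of mitochondrial translation were counted beside the mitochondrial synthetases, to be read against 24% lower and 24.4% higher over all genes tested. Both counts of the mitochondrial translation factors are near that share. Of 78 mitochondrial ribosomal protein genes 37 fell and 3 rose (5 without siNC replicate 2), with a median log2 fold change of -0.15, including MRPL37 (-1.11), MRPS17 (-0.97), MRPS9 (-0.85) and MRPL20 (-0.79). Of 16 genes for charging and modification of mitochondrial transfer RNA 8 fell and 2 rose, with GATC (-0.59), a subunit of the amidotransferase that makes glutaminyl-tRNA in mitochondria, CDK5RAP1 (-0.48) and TRMU (-0.47) lower and KIAA0391 (0.62), the nuclease subunit of mitochondrial RNase P, higher; without siCBX3 replicate 1, or without siNC replicate 2, 5 fell. Mitochondrial translation factors were split, with 2 of 10 lower (MRRF at -0.52 and MTIF3 at -0.32) and 2 higher (MTRF1 at 0.95 and C12orf65 at 0.27) and a median of 0.060, and these counts ran from 1 to 2 lower and 1 to 4 higher with 1 library left out. The calls of MTIF3 (without siNC replicate 2 or either siCBX3 library, adjusted p 0.0704 to 0.334) and C12orf65 (without siNC replicate 1 or either siCBX3 library, adjusted p 0.0839 to 0.314) rested on single libraries. Mitochondrial synthetases, by comparison, had 6 of 17 higher and 1 lower, and the difference between these lists was not tested.

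Some members share exon bases with other features. The settings for strand and for shared reads used in counting are not given in the sources used here. Counts of these members can therefore include reads of the partner or lack reads from the shared bases. Among cytosolic genes 10 share none, and of these 7 fell (FARSB, IARS, NARS, SARS, VARS, TARS and RARS) and 0 rose. Among mitochondrial genes 8 share none, and of these TARS2 and LARS2 rose and MARS2 fell. Over all genes tested 24% were lower and 24.4% higher, so the share of these mitochondrial genes that rose is near the background. The other mitochondrial genes that rose share exon bases with a partner. SARS2 shares 46.2% of its exon bases with CTC-360G5.8 on the same strand, a feature with 728 and 755 counts in siCBX3 and 571 and 743 in siNC. WARS2 shares 4.68% with RP11-418J17.1 on the opposite strand, which had 5818 and 7027 counts in siCBX3 and 4781 and 6034 in siNC, more than WARS2 itself. HARS shares 592 bases with HARS2 on the opposite strand, 17.4% of the exon bases of HARS2, and HARS had 5331 and 6025 counts in siCBX3 and 4827 and 5273 in siNC. The part of these partners in the changes of SARS2, WARS2 and HARS2 was not tested. Pseudogenes named after members had 2 counts or fewer in every library.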

How the data were processed

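Stranded mRNA libraries were sequenced, per the labels' protocols, and the submitters' processing notes list STAR 2.5.3a, Trimmomatic 0.36, Subread 1.5.1, featureCounts and build GRCh38. How strand, shared reads and molecular identifiers were handled is not given in the sources used here. Deposited by the authors were raw counts per gene and RPKM values for 37450 features, 1 column a library, per the file headers. RPKM served only for levels between genes, for ratios within a library and for 1 alternative test.

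Counts were tested with edgeR 4.0.16 in R 4.3.3 (filterByExpr with minimum count 10 and minimum total 15, TMM scaling, quasi-likelihood fit with group as its only term on all 4 libraries), with p-values adjusted over 20999 genes. Levels are TMM-scaled CPM. An SE was obtained by dividing a log2 fold change, sign dropped, by the square root of its F statistic. Alternatives used other scalings and filters, DESeq2 1.42.0, limma 3.58.1 (voom, and log2(RPKM + 1) with a pseudocount of 1), each library left out and a replicate block. The fit was tested on simulated data. Motifs were searched with Python 3.11.15.

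A mitochondrial member is not reported here by name or plotted on its own, but is in the counts and medians. The members, lists and motifs were chosen with earlier results of these data known. Values in every library were given for members with an adjusted p under 0.05 and a log2 fold change of at least 0.5 in size, for the most and least abundant of each compartment and for pairs called in opposite directions; further members were chosen after their values were seen. Up to 4 genes of each list were named by smallest adjusted p, with ATF4 and PCK2 added after their values were seen. Counting error understates the true error where reads are PCR copies.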

Additional observations from a re-analysis of the deposited data

How the results depend on the processing

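CBX3 kept its direction and call under all 13 alternatives, and the counts over all genes stayed within 1.5 times except as given here. On log2(RPKM + 1), which shrinks low genes, 4 members rose (1 cytosolic and 3 mitochondrial, with 0 mitochondrial lower), as did 27 genes of the related lists. With library totals 1 cytosolic gene rose and 2 mitochondrial genes fell, and upper-quartile scaling gave the same counts, 1 and 2; over all genes library totals gave 4243 higher and 5917 lower against 5132 and 5041 with TMM. The DESeq2 test called 0 mitochondrial genes lower. Leaving out 1 library at a time, 5 to 12 members rose and 7 to 13 fell; 0 to 6 cytosolic genes rose and 7 to 13 fell; 5 to 6 mitochondrial genes rose and 0 to 1 fell; and 32 to 57 genes of the related lists rose. No member that was called changed its direction. The causes of these differences were not tested. With the replicate block 5371 genes were higher and 5259 lower, 4 cytosolic genes rose and 10 fell, 6 mitochondrial genes rose and 1 fell, and CBX3 had a log2 fold change of -3.19; GARS (adjusted p = 0.0218) and KARS (adjusted p = 0.0438) were called in addition. Whether the replicate numbers pair the libraries is not known, since the labels name no shared batch. Deviations from the group means had a correlation of 0.0287 between same-numbered libraries, which shows little shared deviation but cannot settle how the replicates were made. PARS2, FARS2, MARS2 and YARS2 had the fewest reads of the members, with 85 to 240 counts per library, and the largest SEs of the log2 fold change, 0.15 to 0.21.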

Other observations

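Synthetases fall into class I and class II, which differ in the fold of the catalytic domain. Among cytosolic genes of class I, 4 of 9 fell and 1 rose, with a median log2 fold change of -0.14, and among those of class II 5 of 10 fell and 2 rose, with a median of -0.23 (EPRS holds a domain of each class and is left out). Among mitochondrial genes of class I, 2 of 9 rose (WARS2 and LARS2) and 1 fell, with a median of 0.12, and among those of class II 4 of 8 rose (SARS2, HARS2 and TARS2 among them) and 0 fell, with a median of 0.36. Over all genes tested 24% were lower and 24.4% higher, so the share of class I mitochondrial genes that rose is near the background. The classes were compared after the values had been seen, and the differences between them were not tested.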
